A study of Mus musculus with 5 samples.

Results

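The genes described here are Lin28a, Lin28b, Trim71, Hmga2, Igf2bp1, Igf2bp2, Igf2bp3 and Mycn, a group that goes by the name of heterochronic genes because relatives of several of them set the timing of developmental steps in the worm Caenorhabditis elegans. They were chosen by name, and all 8 were found once each among the 27998 genes of the matrix. The question was whether each gene differed between libraries in the same way in all cell classes of the early eye region or in 1 tissue only. Ocular areas of wild-type C57BL/6J mouse embryos were dissociated with trypsin and profiled by droplet sequencing of the 3′ ends of RNA (10x Genomics Chromium), 1 embryo at each of 12, 16, 20, 24 and 26 somites, with no treatment or engineered allele named in the labels. The matrix separates 5 libraries by a number at the end of each cell barcode, and nothing in the labels ties a number to a stage. The libraries are therefore called 5, 4, 3, 2 and 1, no stage is assigned to any of them, and since each is 1 embryo they are not replicates of a condition. All intervals below are 95% intervals that cover counting error only, and no p-value is given.

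LIN28A and LIN28B are RNA-binding proteins that block the maturation of let-7, a family of microRNAs that repress their target messages through the seed, the bases near the 5′ end of the microRNA. TRIM71 is an RNA-binding protein of the TRIM-NHL family that represses messages and, like the LIN28 proteins, is both present in early embryos and a target of let-7. HMGA2, a chromatin protein, and the IGF2BP proteins, which bind and stabilise messages, are well known let-7 targets, and MYCN is a transcription factor that promotes growth and division of progenitors and can raise LIN28B in human cells.

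The let-7 sequences are shown first because 7 of the 8 genes carry their binding site. RefSeq (GRCm38.p6) lists 10 mature let-7 names at 12 places in the mouse genome, and 9 of the names share the seed GAGGUAG. In the sequences below, written 5′ to 3′, capitals mark bases 2 to 8, the seed.
let-7a-5p, chr13:48538239-48538260, minus strand: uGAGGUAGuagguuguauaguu
let-7d-5p, chr13:48536078-48536099, minus strand: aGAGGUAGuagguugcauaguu
let-7g-5p, chr9:106178846-106178867, plus strand: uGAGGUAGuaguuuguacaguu
let-7i-5p, chr10:122985698-122985719, minus strand: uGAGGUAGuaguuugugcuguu
let-7j, chr3:140028281-140028304, plus strand: uGAGGUAUuaguuugugcuguuau
The last of these, let-7j, is the name whose seed differs. The microRNAs themselves were not measured, since the assay counts RNA with a poly(A) tail.

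The letters that pair with the common seed, CTACCTC, were searched on the sense strand of the longest annotated 3′ UTR of each gene (GENCODE vM21, GRCm38). They occurred in 1897 of 21021 genes with a 3′ UTR (9.02%). Among the heterochronic genes, 7 of 8 held them, with 20 matches in all. The first match of each gene, and the second of Lin28a, are given with the 22 bases before and the 1 base after it, and capitals mark the letters that pair with the seed.
Lin28a, chr4:134005189-134005218, minus strand: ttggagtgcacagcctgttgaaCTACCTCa
Lin28a, chr4:134004551-134004580, minus strand: atgctttgagatcgccacaaacCTACCTCa
Lin28b, chr10:45381022-45381051, minus strand: tcccttcacccgggcgggaagtCTACCTCa
Trim71, chr9:114512472-114512501, minus strand: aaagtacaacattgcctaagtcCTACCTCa
Hmga2, chr10:120364224-120364253, minus strand: agggggcgccgacattcaatttCTACCTCa
Igf2bp1, chr11:95961778-95961807, minus strand: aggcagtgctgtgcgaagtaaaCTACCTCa
Igf2bp2, chr16:22059473-22059502, minus strand: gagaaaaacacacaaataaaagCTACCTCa
Igf2bp3, chr6:49086787-49086816, minus strand: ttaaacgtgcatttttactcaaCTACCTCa
Lin28b, Trim71, Hmga2 and Igf2bp1 had 4 matches each, Lin28a had 2, and Igf2bp2 and Igf2bp3 had 1 each. These 3′ UTRs are long, and longer ones hold such letters more often, so each count stands beside the share of genes of like length (75% to 125% of it) that hold at least 1 match. That share was 14.6% for the 2775 bases of Lin28a, 23.7% for the 4445 bases of Lin28b and 28.3% for the 5512 bases of Trim71. It was 15.9% for the 3014 bases of Hmga2, 32.2% for the 6337 bases of Igf2bp1, 11.5% for the 1784 bases of Igf2bp2 and 12.9% for the 2119 bases of Igf2bp3. The 3′ UTR of Mycn, 913 bases long, does not contain these letters, and 6.76% of genes of like length contain them. A match describes the sequence and says nothing about whether let-7 acts there in these cells.

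The genes lie on the minus strand of 7 chromosomes in GRCm38, Lin28a at chr4:134003330-134018841, Lin28b at chr10:45376620-45486395, Trim71 at chr9:114507133-114564369, Hmga2 at chr10:120361275-120476469, Igf2bp1 at chr11:95957163-96005940, Igf2bp2 at chr16:22059009-22163299, Igf2bp3 at chr6:49085223-49214957 and Mycn at chr12:12936093-12941914. Of these, 5 (Lin28a, Trim71, Hmga2, Igf2bp1 and Igf2bp3) overlap an annotated gene on the opposite strand. Whether the counting used the strand is not given in the sources used here, so reads of such a pair may not be separable.

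The matrix held 257637891 UMIs, counts of distinct RNA molecules, in 8194 barcodes, and 8106 cells were kept. The median cell had from 20713 UMIs in library 5 to 30922 in library 1, and 40 barcode sequences occurred in more than 1 library. Cells were grouped into classes by marker genes, with the 8 genes themselves, the cell cycle genes and the other lists used below kept out of the clustering. The optic vesicle-like class, the neuroepithelium that forms retina and pigment epithelium, held 631, 178, 373, 232 and 64 cells in libraries 5, 4, 3, 2 and 1, and all 10 of its markers, Rax and Six6 among them, were at least 2-fold higher than in all other cells. Other forebrain-like cells numbered 147, 453, 602, 405 and 556, cranial neural crest mesenchyme-like cells 511, 347, 287, 294 and 248, and endothelium-like cells 72, 71, 124, 59 and 62 in the same libraries. Clustered again within each library, optic vesicle-like cells formed 1 sub-cluster in library 1 and 7 in library 5, and other forebrain-like cells formed 8 and 2. Ratios between these libraries in these classes, and ratios of such ratios, may therefore compare different regions. Surface ectoderm-like cells (403), head mesoderm-like cells (466) and erythroid-like cells (253) had fewer than 50 cells in some libraries. For each class in each library the UMIs of all its cells were added up and scaled to a common total, as CPM. A gene is called past the fold where its CPM differed at least 2-fold and reached 10 CPM on the higher side, with at least 50 cells on each side. Between 1 pair of libraries this is a description of those embryos, and fewer RNA molecules of a gene per cell cannot be told apart from fewer cells that contain it unless the share of cells is given.

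Lin28a and Mycn were the genes past the fold in optic vesicle-like cells of library 5 over library 1, both lower in library 5. That is 2 of 8 genes lower and 0 of 8 higher, where 5.38% of all 7623 genes tested were lower and 11.0% were higher, 16.4% in either direction. The remaining genes of the group stayed within 2-fold in that class. In other forebrain-like cells 0 of 8 were past the fold in the same pair of libraries, against 13.1% of all genes. Crest mesenchyme-like cells had 1 of 8, Mycn, lower, against 7.86% of all genes lower. Endothelium-like cells had 1 of 8, Lin28a, lower, against 7.69% of all genes lower. With 8 genes, a count of 1 or 0 is near these shares and is no result about the group. In other forebrain-like cells of libraries 4, 3 and 2, and in crest mesenchyme-like, head mesoderm-like and endothelium-like cells of libraries 3 and 2, each over library 1, 0 of 8 genes were past the fold. The calls of the other comparisons stand with their genes below. All genes past the fold in the comparisons with none of the 8 were 4.91%, 2.92% and 1.56% in other forebrain-like cells of libraries 4, 3 and 2, then 3.03% and 1.84% in crest mesenchyme-like, 2.47% and 1.53% in head mesoderm-like and 3.45% and 2.75% in endothelium-like cells of libraries 3 and 2. Over all genes tested, the median log2 difference, computed after adding 5 CPM, was 0.146 in crest mesenchyme-like cells and from 0.04 to 0.08 in the other classes for library 5 over library 1.

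**Figure D1:**
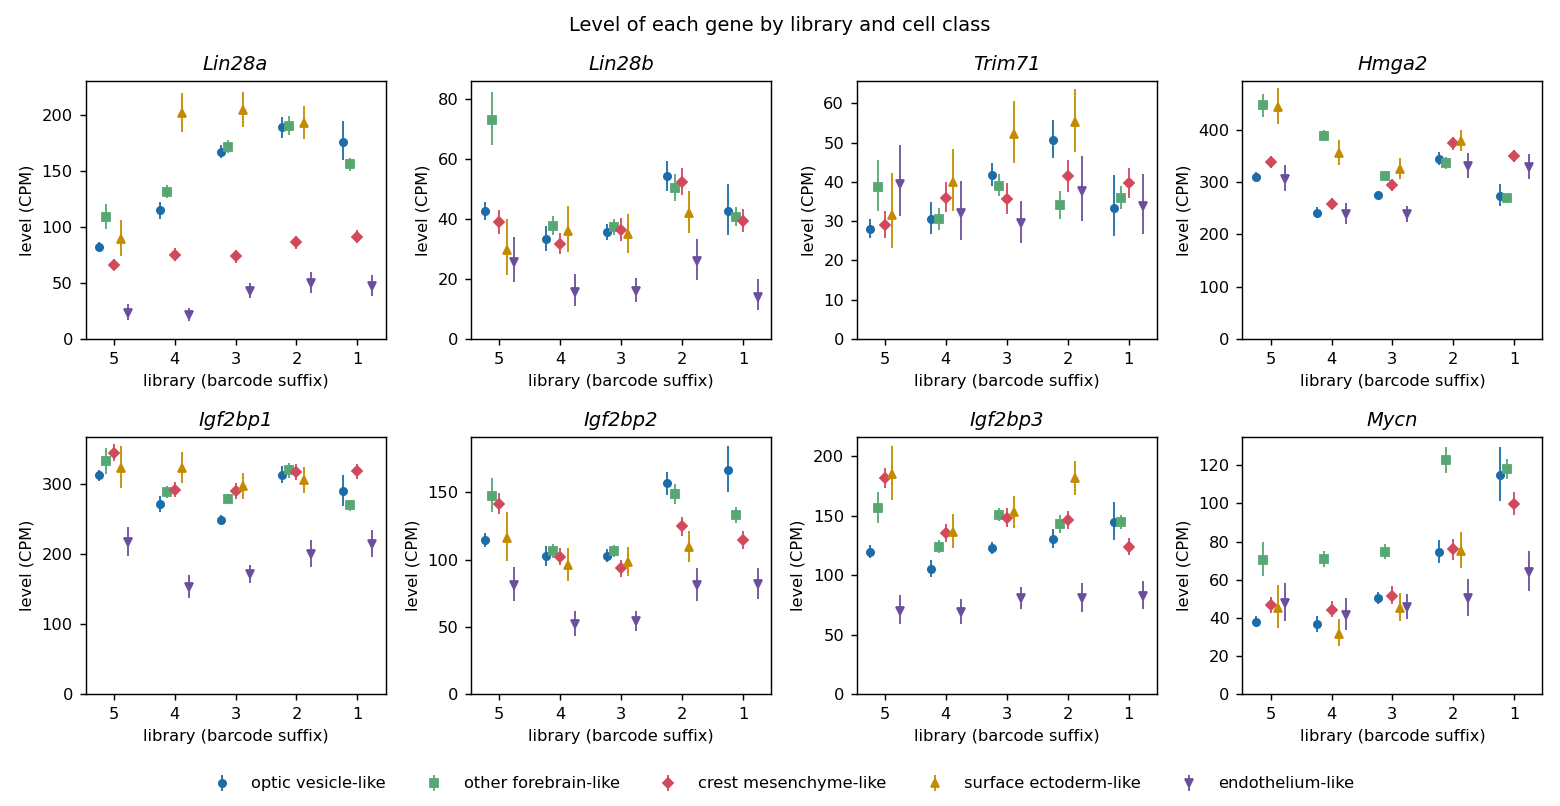
Level of each gene (CPM, vertical axis, starting at 0) in 5 classes of cells, with libraries 5, 4, 3, 2 and 1 from left to right; bars are 95% Poisson intervals, for counting error only. Lin28a and Mycn are lower in library 5 than in library 1 in the optic vesicle-like class, while Hmga2 in other forebrain-like cells is higher in library 5.

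Lin28a, which keeps let-7 precursors from being processed in the cytoplasm, was at 82.4, 115, 167 and 189 CPM in optic vesicle-like cells of libraries 5, 4, 3 and 2, against 176 CPM in library 1. Libraries 5 and 4 were low, and libraries 3, 2 and 1 were close to each other. Library 5 over library 1 gave a ratio of 0.468 (0.419 to 0.523), that is 2.14-fold lower (1.91 to 2.39). After each cell was thinned to 10000 UMIs, the share of optic vesicle-like cells with a Lin28a UMI was 52.1% (48 to 56.2) in library 5, 59.6% in library 4, 76.9% in library 3 and 80.6% in library 2, against 76.6% (64.3 to 86.2) in library 1. The same share in erythroid-like cells, which hold little of this RNA, was 2.77% after thinning. Before thinning, 77% of the cells of library 5, 94.4% of library 4, 97.9% of library 3 and 97.4% of library 2 had a Lin28a UMI, against 100% of library 1, and 7.51% of erythroid-like cells. The thinned level is 1.89-fold lower in library 5, under the 2-fold limit, with the same direction.

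In other forebrain-like cells Lin28a was at 109, 131, 172 and 190 CPM in libraries 5, 4, 3 and 2, against 156 CPM in library 1. The order of the libraries was thus nearly that of the optic vesicle-like class, with a smaller difference: library 5 over library 1 gave 0.699 (0.628 to 0.777). Lin28a in crest mesenchyme-like cells was at 66.4, 75.3, 73.8 and 86.1 CPM in libraries 5, 4, 3 and 2, against 91.3 CPM in library 1, a ratio of 0.727 for library 5. In endothelium-like cells it was at 23.1, 21.1, 43.0 and 49.8 CPM, against 47.0 CPM in library 1, with libraries 5 and 4 both past the fold. The ratio there was 0.492 (0.34 to 0.701) for library 5 and 0.45 for library 4, 2.22-fold lower, where 4.75% of all genes were lower and the median gene shifted by -0.21 on the log2 scale. The library 4 call was lost without ribosomal, mitochondrial and haemoglobin genes (1.98-fold lower) and with median-of-ratios scaling (1.9-fold). The library 5 call was lost in 3 of 10 alternatives, some of which could not change it. In surface ectoderm-like cells Lin28a was at 89.3 CPM in library 5 and between 193 and 204 CPM in libraries 4, 3 and 2, against 171 CPM in the 47 cells of library 1. Library 5 was the lowest or next to lowest library for Lin28a in each of these 5 classes. The ratio of library 5 to library 1 differed in size: set against other forebrain-like cells, the ratio in optic vesicle-like cells was 0.669 (0.575 to 0.779) of theirs, and set against crest mesenchyme-like cells it was 0.643 (0.554 to 0.746). Set against endothelium-like cells it was 0.951 (0.661 to 1.37), an interval that includes 1.

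Of the 8 genes, Lin28a had the largest ratio of optic vesicle-like to endothelium-like cells. Pooled over libraries, it was 3.59-fold higher (3.27 to 3.94) in optic vesicle-like than in endothelium-like cells, and 1.72-fold higher than in crest mesenchyme-like cells. Within libraries 5, 4, 3 and 2 the ratio to crest mesenchyme-like cells was 1.24, 1.52, 2.26 and 2.19, against 1.93 in library 1. Ordered by their median over libraries, surface ectoderm-like cells (197 CPM, 89.3 to 204) came first, then optic vesicle-like (167 CPM, 82.4 to 189), other forebrain-like (156 CPM, 109 to 190) and head mesoderm-like cells (113 CPM, 99.1 to 125). The ranges of these neighbours overlapped. Crest mesenchyme-like cells (75.3 CPM, 66.4 to 91.3) came next. Their range lay below those of other forebrain-like and head mesoderm-like cells, but overlapped those of surface ectoderm-like and optic vesicle-like cells, whose lowest levels were in library 5. Endothelium-like cells (43 CPM, 21.1 to 49.8) came below all of these classes without overlap.

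Lin28b, the paralogue that in other cells acts on let-7 precursors in the nucleus as well, did not share this pattern. Optic vesicle-like cells had it at 42.6, 33.2, 35.6 and 54.2 CPM in libraries 5, 4, 3 and 2, against 42.4 CPM in library 1. Library 5 and library 1 were alike, with a ratio of 1, and library 2 was the highest. Other forebrain-like cells had Lin28b at 72.9, 37.7, 37.3 and 50.3 CPM, against 40.6 CPM in library 1. Library 5 thus stood above the other libraries, at 1.79 times library 1 (1.55 to 2.07). The class was made of 2 sub-clusters in library 5, at 69.5 and 75.5 CPM, and of 8 in library 1, from 28.7 to 49.8 CPM, which may be different regions. In endothelium-like cells the ratio was 1.82 (1.15 to 2.92), from levels of 25.7 CPM in library 5 and 14.1 CPM in library 1. Neither passed the 2-fold limit. Crest mesenchyme-like cells had Lin28b at 38.9 CPM in library 5 and 39.2 CPM in library 1. The 2 LIN28 genes therefore differed in direction between library 5 and library 1 in other forebrain-like and endothelium-like cells, with Lin28a lower and Lin28b higher in library 5. Across classes, Lin28b was 2.17-fold higher (1.9 to 2.49) in optic vesicle-like than in endothelium-like cells. With Lin28a, this made 2 of 8 genes past the fold higher in that comparison, where 10.4% of all genes were higher. Set against other forebrain-like, crest mesenchyme-like, head mesoderm-like and surface ectoderm-like cells, 0 of 8 genes were past the fold in either direction, where 2.25%, 10.4%, 10.9% and 9.48% of all genes were.

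Trim71 was not past the fold in any library over library 1, nor between the optic vesicle-like class and any class but the erythroid-like one. Its level in optic vesicle-like cells was 28.0, 30.6, 41.8 and 50.6 CPM in libraries 5, 4, 3 and 2, against 33.3 CPM in library 1, and library 2 was the highest. The ratio to library 1 was 0.84 (0.66 to 1.08) for library 5 and 1.52, with a lower bound of 1.19, for library 2. In thinned cells the library 2 ratio was 2.01, which is past the fold and higher. That ratio in crest mesenchyme-like cells was 0.73 (0.624 to 0.852), from 28.9 CPM in library 5 and 39.6 CPM in library 1. In other forebrain-like cells it was 1.07 and in endothelium-like cells 1.17. By class, the median over libraries lay between 30.4 CPM in head mesoderm-like and 46.0 CPM in surface ectoderm-like cells, and the ranges of all neighbouring classes overlapped, apart from erythroid-like cells, at 1.09 CPM in the 1 library with 50 of them.

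Hmga2, the chromatin protein that is a classic let-7 target, was higher in library 5 than in library 1 in other forebrain-like cells, and slightly so in optic vesicle-like cells. Other forebrain-like cells held it at 446, 389, 311 and 336 CPM in libraries 5, 4, 3 and 2, against 269 CPM in library 1. Library 5 was the highest and library 1 the lowest, with a ratio of 1.66 (1.56 to 1.75), within 2-fold. The 2 sub-clusters of library 5 were at 435 and 454 CPM, and the 8 of library 1 from 236 to 310 CPM, which may be different regions. The optic vesicle-like levels were 310, 241, 275 and 344 CPM, against 274 CPM in library 1, and the ratio of library 5 was 1.13 (1.04 to 1.23). Library 2 was the highest there. In surface ectoderm-like cells Hmga2 was at 444, 355, 326 and 379 CPM, against 258 CPM in the 47 cells of library 1, so library 5 was the highest outside the neuroepithelium too. Crest mesenchyme-like cells (0.967) and endothelium-like cells (0.93) had ratios just under 1. Hmga2 was the gene with the lowest median in optic vesicle-like cells of all classes apart from erythroid-like cells, at 275 CPM, but the range over libraries overlapped that of every class listed above it.

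Igf2bp1 differed little between libraries. In optic vesicle-like cells it was at 312, 271, 248 and 313 CPM in libraries 5, 4, 3 and 2, against 290 CPM in library 1, and in crest mesenchyme-like cells at 344, 291, 290 and 316 CPM, against 317 CPM in library 1. Ratios of library 5 over library 1 were 1.08 in both classes and 1.24 in other forebrain-like cells. Its class difference was larger than its library difference: endothelium-like cells ranged from 153 to 217 CPM, below the range of every other class apart from erythroid-like cells.

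Igf2bp2 and Igf2bp3, paralogues of Igf2bp1, differed in direction between optic vesicle-like and crest mesenchyme-like cells in library 5 over library 1. The crest mesenchyme-like class was made of different clusters in these 2 libraries. Igf2bp2 was at 114, 103, 103 and 157 CPM in optic vesicle-like cells of libraries 5, 4, 3 and 2, against 167 CPM in library 1, a ratio of 0.686 (0.615 to 0.767) for library 5. Its levels in crest mesenchyme-like cells were 142, 102, 93.5 and 125 CPM, against 115 CPM in library 1, a ratio of 1.24 (1.14 to 1.34). Library 5 was thus below library 1 in the optic vesicle-like class and the highest library in crest mesenchyme. The ratio in other forebrain-like cells was 1.11 (1.01 to 1.22), where the median gene was at 1.05, and in endothelium-like cells it was 0.994. Igf2bp3 was at 120, 106, 123 and 131 CPM in optic vesicle-like cells, against 145 CPM in library 1, a ratio of 0.826 (0.736 to 0.929). Crest mesenchyme-like cells held it at 181, 135, 148 and 146 CPM, against 124 CPM in library 1, a ratio of 1.46 (1.36 to 1.57). For Igf2bp3, library 1 was the highest library in the optic vesicle-like class and the lowest in crest mesenchyme. Its ratio was 1.08 in other forebrain-like and 0.853 in endothelium-like cells. None of these ratios passed the 2-fold limit. Relative to crest mesenchyme-like cells, the library 5 over library 1 ratio of optic vesicle-like cells was 0.555 for Igf2bp2 and 0.565 for Igf2bp3.

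Of the 8 genes, Mycn had the largest fold difference between library 5 and library 1 in the optic vesicle-like class. In optic vesicle-like cells it was at 38.1, 36.7, 50.4 and 74.7 CPM in libraries 5, 4, 3 and 2, against 115 CPM in library 1. Library 1 was the highest and libraries 5 and 4 were the lowest. The ratio was 0.332 (0.288 to 0.384) for library 5, that is 3.01-fold lower (2.6 to 3.48), and 3.13-fold lower in library 4 and 2.28-fold lower in library 3. In the last 2 comparisons Mycn was 1 of 8 genes lower, where 4.42% and 3.55% of all genes were lower and the median gene shifted by -0.14 and -0.21 on the log2 scale. After thinning, 29.6% (26 to 33.5) of optic vesicle-like cells of library 5 had a Mycn UMI, 37.1% of library 4, 39.9% of library 3 and 52.9% of library 2, against 59.4% (46.4 to 71.5) of library 1 and 1.58% of erythroid-like cells. Before thinning the shares were 55.6%, 66.9%, 83.4% and 77.6%, against 90.6% in library 1 and 6.72% of erythroid-like cells. In library 2 over library 1, 0 of 8 genes were past the fold in this class, against 4.67% of all genes, and 1 of 8, Trim71, in thinned cells.

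The crest mesenchyme-like class was made of different clusters in these libraries: all 248 cells of library 1 were in 1 cluster, and the 511 cells of library 5 were in 3 others (391, 106 and 14 cells). Values within it therefore compare different clusters. In crest mesenchyme-like cells Mycn was at 46.7, 44.4, 51.7 and 75.9 CPM in libraries 5, 4, 3 and 2, against 99.7 CPM in library 1. The libraries had the same high end as in the optic vesicle-like class, with ratios of 0.468 (0.418 to 0.524) for library 5 and 0.446 for library 4. In library 4 this was 1 of 8 genes lower, where 4.77% of all genes were lower. The library 5 call was lost in 3 of 11 alternatives, some of which could not change it. Mycn in other forebrain-like cells was at 70.5, 70.7, 74.7 and 123 CPM, against 118 CPM in library 1, a ratio of 0.598 (0.523 to 0.681). In endothelium-like cells it was at 47.8, 41.4, 45.7 and 50.2 CPM, against 64.1 CPM in library 1, a ratio of 0.745 (0.569 to 0.971), which turned to 1.18 when cells were thinned. Surface ectoderm-like cells stood apart: Mycn was at 45.0, 31.8, 45.3 and 75.2 CPM there, against 37.5 CPM in the 47 cells of library 1. Library 1 was thus next to lowest. With a minimum of 30 cells, library 2 over library 1 was past the fold and higher there, at 2.01 (1.53 to 2.67). In that comparison 6.98% of all genes were past the fold. Libraries 5 (1.2), 4 (0.848) and 3 (1.21) over library 1 had intervals that include 1. The library 5 over library 1 ratio in optic vesicle-like cells was 0.555 (0.458 to 0.672) of that in other forebrain-like cells. It was 0.709 (0.593 to 0.849) of that in crest mesenchyme-like cells and 0.446 (0.332 to 0.598) of that in endothelium-like cells. The level in optic vesicle-like over other forebrain-like cells was 0.54, 0.519, 0.674 and 0.608 in libraries 5, 4, 3 and 2, against 0.973 in library 1.

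**Figure D2:**
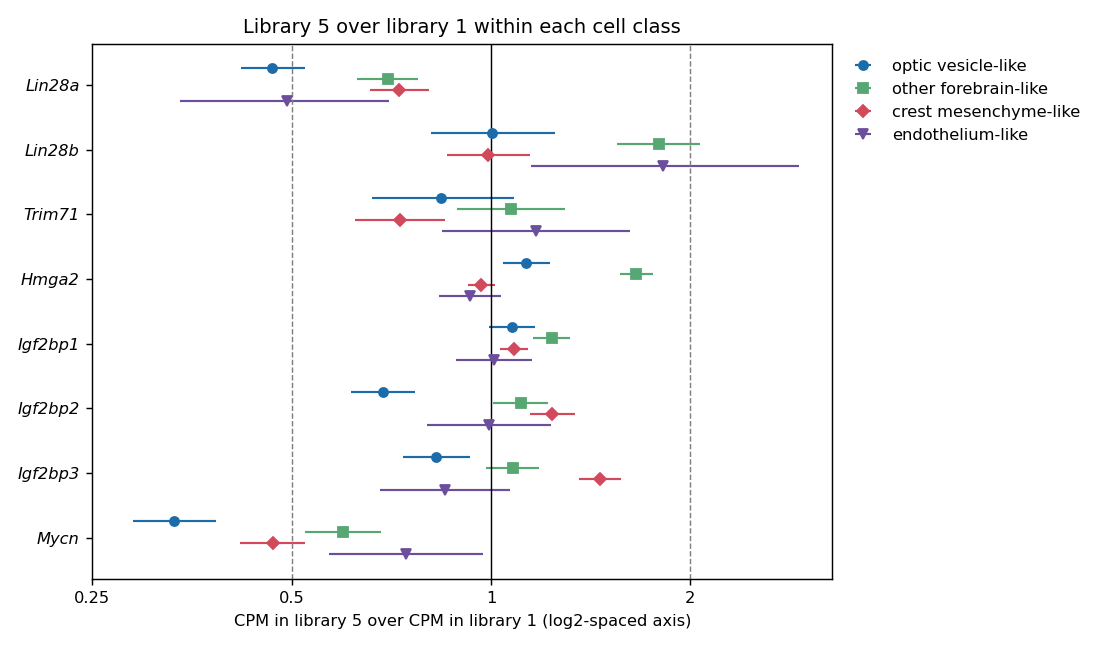
Ratio of the CPM in library 5 to that in library 1 (horizontal axis, log scale) for each gene in 4 classes, with 95% intervals from counting error only and dashed lines at 2-fold lower and higher. Mycn and Lin28a in the optic vesicle-like class, Mycn in crest mesenchyme and Lin28a in endothelium lie beyond the lower line.

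Other measures moved between the same libraries. In optic vesicle-like cells of library 5 the nuclear RNA Malat1 was at 3998 CPM, against 1948 CPM in library 1, and the median cell had 25077 UMIs, against 34233. Mitochondrial genes took 2.17% of UMIs in library 5, against 1.06% in library 1. The 16 S phase genes summed to 1727 CPM in library 5, against 2931 CPM in library 1. In other forebrain-like cells Malat1 was at 4407 CPM in library 5 and 2275 CPM in library 1, and in crest mesenchyme-like cells at 5657 and 1752 CPM. S phase genes summed to 1826 CPM in library 5 and 2616 CPM in library 1 in other forebrain-like cells, and to 1558 and 2313 CPM in crest mesenchyme-like cells. The part of these differences in the levels of Lin28a and Mycn was not tested, and neither sequencing, dissection nor stage can be told apart from the library.

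How far a gene's differences were shared was summarised in a grid of the 4 classes that had at least 50 cells in every library, by the share of the sum of squares of log2(CPM + 5) that went with library, with class and with neither. For Mycn, 56% went with library and 33.4% with class. For Lin28a 13.5% went with library and 83.1% with class. Its medians over libraries were 43 CPM in endothelium-like and 75.3 CPM in crest mesenchyme-like cells, against 167 CPM in optic vesicle-like and 156 CPM in other forebrain-like cells. Lin28b (20.5% library, 71.7% class), Igf2bp1 (13.5% and 81.1%), Igf2bp2 (27.2% and 66%) and Igf2bp3 (4.84% and 87.4%) were likewise mostly split by class. Hmga2 had 36% with library and 22.7% with class. Trim71 had 1.99% with class and 68.4% with neither, over a range of only 0.75 on the log2 scale. The median of all 9354 genes in the grid was 34% for library, 45.6% for class and 12% for neither. Much of the class share of Lin28b, Igf2bp1, Igf2bp2 and Igf2bp3 rested on endothelium, while most of that of Lin28a remained without it. Leaving endothelium out was an alternative added after the data were seen. The library and class shares were then 30% and 62.3% for Lin28a and 61.3% and 10.9% for Lin28b. They were 68.4% and 16.9% for Igf2bp1, 68.7% and 7.35% for Igf2bp2, and 30.7% and 32.2% for Igf2bp3. The library share was 70.1% for Mycn and 46.7% for Trim71.

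**Figure D3:**
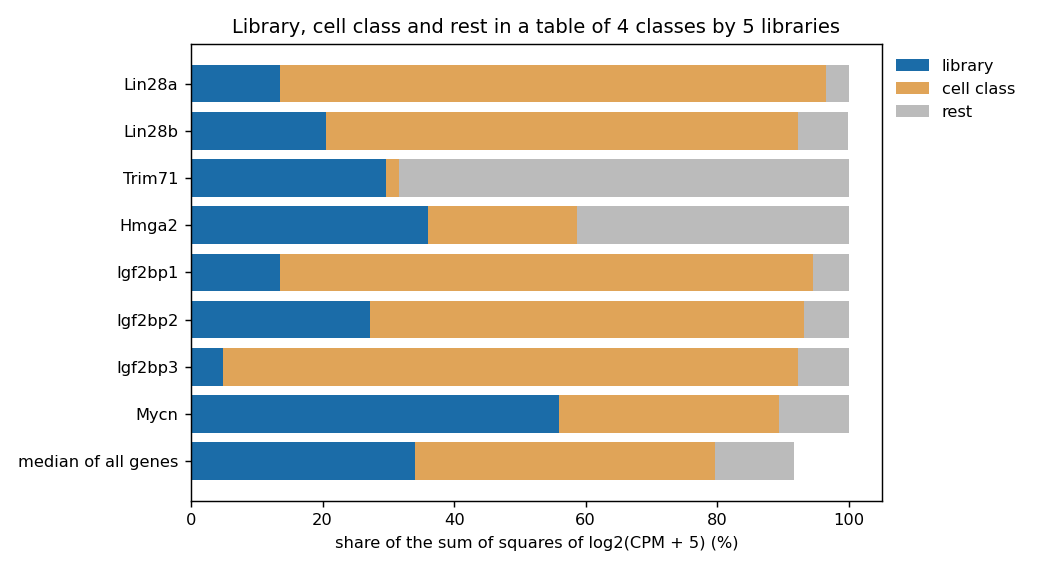
Share of the sum of squares of log2(CPM + 5), in percent, that went with library, with class and with neither for each gene in 4 classes and 5 libraries; the last bar shows the median of each share over all 9354 genes, taken separately, so it need not reach 100%. Mycn has the largest library share of the 8 genes (56%), and Trim71 the smallest class share (1.99%).

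Within the neuroepithelium the sub-clusters of 1 library differed as well. They were built without the 8 genes. Of the 7 optic vesicle-like sub-clusters of library 5, the 1 led by Pmel and Dct, genes of pigment formation, had the lowest Mycn at 20.3 CPM (16.2 to 25.2) and the lowest Trim71 at 12.4 CPM (9.2 to 16.3), over 134 cells. The highest Trim71 (61.7 CPM), Lin28a (111 CPM) and Mycn (53.4 CPM) were in a sub-cluster of 132 cells led by Rpgrip1. That sub-cluster had a median of 15391 UMIs per cell, against 26303 in the Pmel-led one, so its cells were shallower. It was also the highest for Lin28b, Igf2bp1, Igf2bp2 and Igf2bp3. Rpgrip1 also led a sub-cluster named optic vesicle-like in library 2 and 1 named other forebrain-like in library 3. The library 3 one had the highest Trim71 of its class (55.1 CPM). The library 2 one had the highest Mycn (118 CPM) but not the highest Trim71 or Lin28a. For Lin28a, all 7 optic vesicle-like sub-clusters of library 5 stayed below the 176 CPM of library 1. Without the Pmel-led cells, the library 5 over library 1 ratio was 0.376 for Mycn, 0.482 for Lin28a and 0.973 for Trim71.

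Hmga2 had a single sub-cluster far above the rest. In library 4, 77 other forebrain-like cells led by Rspo3 and Dmrt3, a signalling protein and a transcription factor of the dorsal telencephalon, had 780 CPM of Hmga2 (746 to 814), with at least 1 UMI in 100% of cells. The 6 forebrain sub-clusters of that library started at 286 CPM and had a median of 294 CPM. No single cell gave more than 4.05% of the UMIs, so the level did not come from 1 cell. In the same sub-cluster Lin28a was at 79.2 CPM (68.8 to 90.8) and Trim71 at 21.5 CPM, each the lowest of the 6. In other libraries the forebrain sub-clusters with the highest Hmga2 also had Dmrta2 or Dmrt3 among their leading genes, except in library 1, at 454 CPM in library 5, 386 CPM in library 3 and 383 CPM in library 2. In library 1 the highest was 310 CPM, in a sub-cluster led by Nkx2-1 and Shh. Library 5 had only 2 forebrain sub-clusters, and the other was at 435 CPM. In library 4 another sub-cluster had Dmrta2 among its leading genes and was not the highest. In optic vesicle-like cells of library 5 the highest Hmga2, 452 CPM (424 to 481), was in the sub-cluster led by Aldh1a1 and Tbx5, genes of the dorsal retina.

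**Figure D4:**
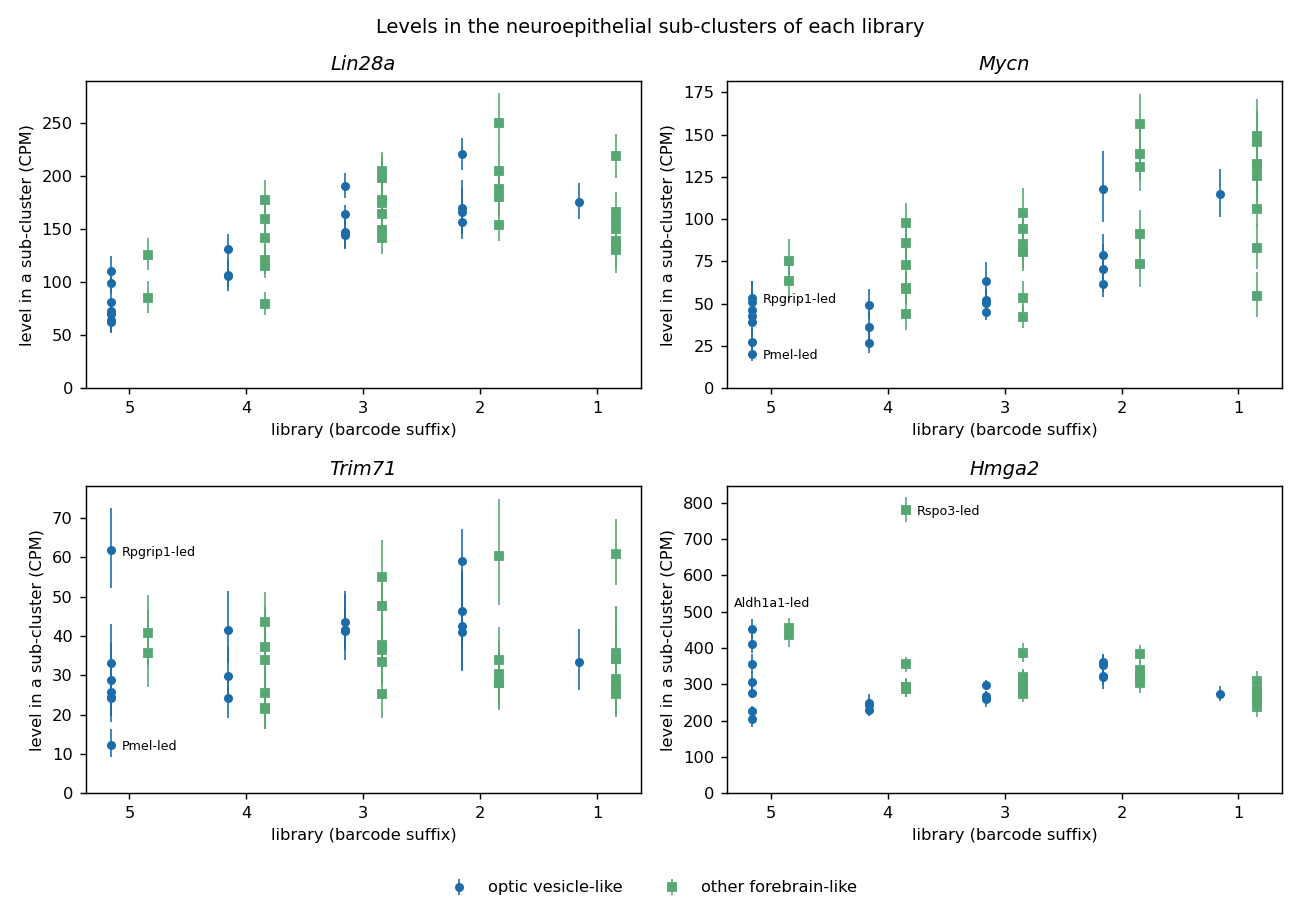
Level (CPM, vertical axis) of Lin28a, Mycn, Trim71 and Hmga2 in each neuroepithelial sub-cluster, 1 point per sub-cluster with a 95% Poisson interval, by library from 5 to 1. The Rspo3-led forebrain sub-cluster of library 4 stands alone at 780 CPM of Hmga2, and the Pmel-led one of library 5 is lowest for Mycn and Trim71 among optic vesicle-like sub-clusters of that library.

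Red cells served as a class that should hold little of these RNAs. All 8 genes were at least 2-fold higher in optic vesicle-like than in erythroid-like cells, where 50.6% of all genes were. Marker genes of other classes were found in erythroid-like cells at 1.91% (1.69 to 2.15) of their level elsewhere, which is taken here as the background. Whether it came from free RNA or from remaining doublets was not tested. The background was uneven: surface ectoderm markers were at 9.13% (5.11 to 15.1) in library 5, against 2.56% with libraries pooled. Lin28a (1.55%), Trim71 (2.02%), Hmga2 (1.83%), Igf2bp2 (2.09%) and Mycn (2.34%) were close to it and are read as background there. Igf2bp1 was at 14.6% (13.3 to 16) of its level elsewhere, Lin28b at 13.5% (10.2 to 17.5) and Igf2bp3 at 7.87% (6.5 to 9.45). Each was above the background with libraries pooled. In single libraries some intervals overlapped that of the markers. Igf2bp3 in library 5 was at 5.28% (2.53 to 9.72), against 2.31% (1.76 to 2.99) for the markers. Lin28b in library 3 was at 4.58% (0.555 to 16.6), against 2.7% (1.93 to 3.68). Igf2bp1 in erythroid-like cells was at 23.0, 30.2, 45.3 and 43.0 CPM in libraries 5, 4, 3 and 2, against 61.2 CPM in library 1. With a minimum of 30 cells, a limit added after the data were seen, the ratio was 0.376 (0.244 to 0.564) for library 5 and 0.494 for library 4, where 13.3% and 23.9% of all genes were past the fold.

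The genes around the pathway were read from lists, all given as library 5 over library 1 in optic vesicle-like cells. In that class 11.0% of all genes were higher past the fold and 5.38% lower, and the counts of every list stand beside these shares. With so few genes in a list, a count near these shares is no result about it. Of 10 genes for let-7 maturation and decay, 1 was higher and 1 lower past the fold. Ago1, which carries mature microRNAs, was at 35.0 CPM in library 5 and 16.0 CPM in library 1, and Xpo5, which exports precursors from the nucleus, at 4.49 and 10.4 CPM. Of 15 further let-7 targets tested, 2 were higher and 1 lower. Nr6a1, a nuclear receptor of early embryos, was at 15.2 CPM in library 5, against 75.3 CPM in library 1, a ratio of 0.202 (0.167 to 0.246), and it was lower past the fold in other forebrain-like and crest mesenchyme-like cells too. Igf1r, the receptor for insulin-like growth factors, was at 59.7 CPM in library 5 and 23.4 CPM in library 1, and the TGF-beta receptor gene Tgfbr1 at 36.1 and 16.9 CPM. The median log2 difference of the targets was 0.21, against 0.04 over all genes. In the other classes it was 0.58 in crest mesenchyme-like cells (0.146 over all genes; 4 higher and 1 lower of 15), 0.37 in other forebrain-like cells (0.08; 1 higher and 1 lower of 16) and 0.38 in endothelium-like cells (0.04; 2 higher and 0 lower of 16). Of the genes for let-7 maturation and decay, 5 of 9 were higher in crest mesenchyme-like, 1 of 9 in other forebrain-like and 2 of 8 in endothelium-like cells, and 0 were lower in these classes. Of all genes, 17.8%, 6.86% and 9.12% were higher in crest mesenchyme-like, other forebrain-like and endothelium-like cells. In the same order, 7.86%, 6.23% and 7.69% were lower.

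Genes that work with or after MYC proteins differed more. Of 14 ribosome biogenesis genes, 7 were lower in library 5 and 0 higher, with a median log2 difference of -0.93. Bop1, for ribosomal RNA processing, was at 22.9 CPM in library 5 and 98.7 CPM in library 1, Rrp9 at 39.7 and 113 CPM, Mybbp1a at 59.0 and 168 CPM and Wdr12 at 54.9 and 131 CPM. In the same pair of libraries 2 of 14 were lower in other forebrain-like cells, where 6.23% of all genes were, 8 of 14 in crest mesenchyme-like cells (7.86%) and 3 of 14 in endothelium-like cells (7.69%). In optic vesicle-like cells of library 3 over library 1, where Mycn was past the fold, 0 of 14 were lower, against 3.55% of all genes. In library 4 over library 1 there were 4 of 14, against 4.42%. The median log2 difference of the 14 was -0.449 in library 3, against -0.215 over all genes, and -0.76 in library 4, against -0.142. In library 2 over library 1, where Mycn was not past the fold, it was -0.565, against -0.0121. A link of these genes to Mycn was not tested. Of 7 genes of the MYC network tested, Mxd4 (29.5 CPM in library 5 and 2.16 CPM in library 1) and Mnt (11.2 and 3.46 CPM), which compete with MYC proteins for MAX, were higher, and Max (50.4 and 104 CPM) was lower. In crest mesenchyme-like cells Myc itself was at 7.99 CPM in library 5, against 48.0 CPM in library 1.

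Of 16 S phase genes, 8 were lower and 0 higher in library 5, with a median log2 difference of -0.94, and 0 of 16 genes for G2 and M phase were past the fold. Mcm2 was at 61.0 CPM in library 5 and 162 CPM in library 1, Mcm5 at 92.5 and 225 CPM, Mcm3 at 87.2 and 211 CPM and Mcm7 at 115 and 265 CPM. These genes encode parts of the helicase that opens DNA for replication. In other forebrain-like, crest mesenchyme-like and endothelium-like cells 3 of 16 S phase genes were lower in each. In the same order, 6.23%, 7.86% and 7.69% of all genes were lower there. Of the G2 and M phase genes, 4 of 16 were lower in other forebrain-like cells, 5 of 16 in endothelium-like cells, and 2 lower and 1 higher in crest mesenchyme-like cells. Of 3 early embryo genes tested, 1 was lower: Prtg, a cell surface protein of early neural tissue, was at 104 CPM in library 5 and 265 CPM in library 1. Of 4 later progenitor genes tested, Nfib was at 16.0 CPM in library 5 and 1.30 CPM in library 1, where only 3 UMIs were counted, a ratio of 12.3 (4.18 to 60.2). Zbtb20 was at 10.6 CPM in library 5 and 1.73 CPM in library 1. Nfib and Zbtb20, transcription factors of later neural progenitors, were past the fold in the same direction in all 4 classes. The 1 TRIM71 target that could be tested was not past the fold.

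All 8 imprinted growth genes were higher in library 5, the list with the highest median, 2.04 on the log2 scale. Igf2, a growth factor whose message IGF2BP proteins bind, was at 108 CPM in library 5 and 6.93 CPM in library 1, a ratio of 15.6 (9.59 to 27.4). H19, a non-coding RNA with let-7 binding sites, was at 305 CPM in library 5 and 15.2 CPM in library 1, Plagl1 at 65.2 and 6.06 CPM and Peg10 at 25.1 and 5.2 CPM. Of the 7 such genes tested in each of the other classes, 5 were higher in other forebrain-like cells, where 6.86% of all genes were, 6 in crest mesenchyme-like cells (17.8%) and 2 in endothelium-like cells (9.12%). The imprinted genes thus differed in the opposite direction to Lin28a and Mycn between the same embryos.

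The genes whose levels were most like each of the 8 were found by Spearman's correlation over 28 class and library profiles, among 9944 genes. The profiles share libraries and cell classes, so the values are descriptions with no p. Closest to Lin28a were Elavl2 (0.909), Bex1 (0.904) and Bex4 (0.9), and closest to Lin28b were Hells (0.909), Lsm5 (0.907) and Fam60a (0.903). Closest to Mycn were Ppp1cc (0.887), Exosc2 (0.877) and Eed (0.877). Igf2bp1 was most like Rprd1a (0.921), Gpsm2 (0.904) and Zfp266 (0.897), Igf2bp2 most like 1110004F10Rik (0.959), Chtop (0.95) and Tmem184c (0.928), and Igf2bp3 most like Cnksr2 (0.867), Nav2 (0.842) and Hs6st2 (0.835). Trim71 (Klhl21, 0.701; Rps27l, 0.69) and Hmga2 (Pard6g, 0.79; Zfp946, 0.774; Setbp1, 0.772) had no gene as close. Among the 8 genes, Lin28b and Igf2bp2 were the most alike (0.834) and Trim71 and Igf2bp2 the least (0.093).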

How the data were processed

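The deposited matrix holds UMI counts per gene and barcode, whole numbers that show no scaling by the authors. Per the submitters' processing notes, Cell Ranger and the build mm10 (GRCm38) were used. The Cell Ranger version and any equalising of depth is not given in the sources used here. Barcodes under 1000 genes (0) or over 10% mitochondrial UMIs (22) were left out, and Scrublet, at an expected rate of 6%, removed 66 more (0.808%, between 0.403% and 1.46% of a library). That is far below the expected rate, so doublets may remain. After scaling to 10000 UMIs, the 2000 most variable genes and 30 principal components entered Leiden clustering (resolution 1, 15 neighbours) in scanpy 1.11.5 with Python 3.11.15 and scipy 1.17.1, without joining libraries. This gave 25 clusters, and the neuroepithelium was clustered again within each library into 51 sub-clusters. A class name needed at least 3 markers at 2-fold or more, 4 for the optic vesicle, by scoring rules set after the data were seen. Neuroepithelium was scored against non-neural classes. Left out were clusters with little Malat1 (680 cells), with markers of several classes (319) or unnamed within the neuroepithelium (103).

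Counts were summed per class and library as CPM. Depth was 43449148, 51678161, 72925591, 47890169 and 41694822 UMIs in libraries 5, 4, 3, 2 and 1. Exact 95% intervals for Poisson counts, their ratios and shares (Clopper-Pearson) cover counting error only. For shares of cells, each cell was thinned to 10000 UMIs, which left out 40 of 631 optic vesicle-like cells in library 5 and 5 of 232 in library 2. Steps across all genes were checked on simulated data. The 8 genes and the lists were chosen with earlier results of these data known. The text names up to 4 genes of each list, those with the largest library 5 over library 1 fold in optic vesicle-like cells among those past the fold, and the 3 genes most like each of the 8, of which 1 for Trim71 is not reported here. Myc in crest mesenchyme and the sub-clusters were named after their values were seen. Alternatives changed filters, clustering, scaling and thinning, and 4 were added after the data were seen: a minimum of 30 cells, cells of 10000 to 40000 UMIs, optic vesicle-like cells outside the Pmel-led sub-cluster, and the grid without endothelium.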

Additional observations from a re-analysis of the deposited data

Results flagged for a closer look

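Igf2bp2 and Igf2bp3 differed in direction between the optic vesicle-like class and some other classes. Igf2bp2 in optic vesicle-like cells had a library 5 over library 1 ratio of 0.686. It was 1.11 (1.01 to 1.22) in other forebrain-like cells, where the median gene was at 1.05, a ratio of ratios of 0.619. In endothelium-like cells the Igf2bp2 ratio was 0.994. Against crest mesenchyme-like cells, with 1.24, the ratio of ratios was 0.555. For Igf2bp3 the ratio was 0.826 in optic vesicle-like and 1.46 in crest mesenchyme-like cells, a ratio of ratios of 0.565. In each case the ratio was below 1 in the optic vesicle-like class and above 1 in the other class, between the same 2 libraries. In libraries 4 and 3 over library 1, Igf2bp2 was below 1 in crest mesenchyme-like cells as well (0.894 and 0.817) and in other forebrain-like cells (0.799 and 0.798). Igf2bp3 in endothelium-like cells was at 0.853 in library 5 over library 1, on the same side as the optic vesicle-like class. With 1 embryo per library the difference was not tested across embryos. None of the single ratios reached 2-fold.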

How the results depend on the processing

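No contrast of the 8 genes that was past the fold under the main settings reversed its direction under any alternative. Contrasts not past the fold under the main settings were not scored for a reversal. For library 5 over library 1 in optic vesicle-like cells, Mycn stayed past the fold in 10 of 10 alternatives (2.66 to 3.23-fold lower). Lin28a did so there in 9 of 10 (1.89 to 2.25). Mycn in crest mesenchyme did so in 8 of 11 (1.82 to 2.32) and Lin28a in endothelium in 7 of 10 (1.58 to 2.57). These counts include alternatives that could not change a call. The minimum of 30 cells moved 0 of 144 values. In endothelium, a Leiden resolution of 2, the listed genes allowed in the clustering and the left-out clusters joined to the nearest class kept the main median log2 difference over all genes (0.0418). The count of the 8 genes lower in crest mesenchyme was 0, not 1, with doublets kept, with a minimum of 2000 genes and a limit of 5% mitochondrial UMIs, and with thinned cells. In endothelium it was 0, not 1, with those stricter filters, without ribosomal, mitochondrial and haemoglobin genes, and with thinned cells. Thinned cells gave 1 gene lower in the optic vesicle, not 2, and 1 higher in optic vesicle over endothelium, not 2 (Lin28b at 1.9-fold). Mycn in optic vesicle of library 3 over library 1 (1.94-fold) was under the limit with median-of-ratios scaling, and so was Lin28a in endothelium of library 4 (1.9-fold), also without ribosomal, mitochondrial and haemoglobin genes (1.98-fold). Trim71 in optic vesicle of library 2 was 2.01-fold higher in thinned cells, and Mycn in crest mesenchyme of library 3 was 2.04-fold lower in cells of 10000 to 40000 UMIs, both under the limit otherwise. Mycn in endothelium, not past the fold at 0.745 times library 1, was at 1.18 times when thinned. Thinned, 2136 genes were past the fold in endothelium, not 1314. With a minimum of 20 CPM, 787 were past it in optic vesicle and 650 in other forebrain, and with no minimum 7005, 5965, 7117 and 4832 in optic vesicle, other forebrain, crest mesenchyme and endothelium. Without endothelium-like cells, the library and class shares of the sum of squares were 30% and 62.3% for Lin28a, 61.3% and 10.9% for Lin28b, 68.4% and 16.9% for Igf2bp1, 68.7% and 7.35% for Igf2bp2, and 30.7% and 32.2% for Igf2bp3, and the library share was 70.1% for Mycn and 46.7% for Trim71. Clustering with the listed genes allowed and the window of 10000 to 40000 UMIs left too few optic vesicle-like cells in library 1 for a contrast. Equal weight for libraries gave no value against erythroid-like cells. No paired analysis was possible because each stage has 1 embryo and the labels number no replicates across groups. Depth limits Trim71 and Lin28b most in the 64 optic vesicle-like cells of library 1, with 77 and 98 UMIs. The cause of each of these moves was not tested.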
